A study of Mus musculus with 40 samples.

Results

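The 10 genes described here encode enzymes and 1 transporter that make, take up and break down prostaglandins. They were chosen by name from the 23079 genes of the deposited count table and are Pla2g4a, Ptgs1, Ptgs2, Ptges, Ptges2, Ptges3, Ptgis, Ptgds, Slco2a1 and Hpgd. The study sequenced total RNA from cervix and from the muscle layer of the uterus (myometrium) of pregnant mice of the inbred strain C57BL/6 at 18.5 days post coitum. The groups were cervix of mice given human chorionic gonadotropin (hCG), a placental hormone that binds the receptor of luteinizing hormone, cervix of mice given phosphate-buffered saline (PBS), myometrium of hCG mice and myometrium of PBS mice, with 10 libraries in each. Injections were intraperitoneal. The sources used here do not give the dose, the interval to collection or the age of the mice. The labels name no modified allele. They carry a number for each library but do not say that libraries came from separate animals, so the p-values measure the spread between these libraries.

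Prostaglandins are lipid signals that ripen the cervix and drive contraction of the uterus in labour. Phospholipase A2 releases arachidonic acid from membrane lipids, the cyclooxygenases convert it to prostaglandin H2, and terminal synthases turn that into prostaglandin E2, prostacyclin, prostaglandin D2 and others. A membrane carrier takes prostaglandins back into cells, where 15-hydroxyprostaglandin dehydrogenase begins their inactivation.

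Total counts were 6613775 to 22274244 in hCG cervix, 7255131 to 25028360 in PBS cervix, 5449239 to 20603741 in hCG myometrium and 5933199 to 20108002 in PBS myometrium. The median total was higher in hCG cervix (16750687) than in PBS cervix (10200498.5), and was 13996544.5 in hCG myometrium and 12953746 in PBS myometrium. Levels are given in CPM, a gene's count relative to the effective size of its library, with all 40 libraries normalized together. The 14 markers of squamous epithelium, the layered lining of the lower cervix, were all detected in both cervix groups and summed to at most 55.6 CPM in any myometrium library, where Sprr3 had no count. The 9 smooth muscle markers were detected in all 4 groups and summed to at least 12396 CPM in every myometrium library. Some hCG cervix libraries stood apart. Library 5 had the highest sums of urothelial markers (2486 CPM, 7 genes) and mesothelial markers (1538 CPM, 6 genes) of its group, library 3 the highest sum of 8 adipocyte markers (3348 CPM) and library 1 that of skeletal muscle markers (6472 CPM). PBS cervix libraries 5 to 8 stood apart in Lars2, a mitochondrial leucyl-tRNA synthetase gene, which had 116 to 1060 CPM in hCG cervix, 39230 to 205990 CPM in these 4 libraries and 64.8 to 1341 CPM in the other 6 PBS cervix libraries. Whether these counts came from Lars2 messenger RNA or from other reads was not tested.

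In each comparison 9 of the 10 members had enough counts to be tested. Ptgds, prostaglandin D2 synthase, did not: it had 26 counts in all in hCG cervix, 24 in PBS cervix, 74 in hCG myometrium and 17 in PBS myometrium. It had no count in 5 hCG cervix, 3 PBS cervix and 3 PBS myometrium libraries, which in the shallowest of these libraries allows up to 0.454 CPM (3 counts of the total, counting error only). Its highest level in any library was 1.26 CPM, in hCG myometrium library 8. It was therefore not compared between groups.

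The promoters of 4 members are shown because these genes carry the differences described below: Hpgd and Slco2a1 between hCG and PBS cervix, and Ptges and Ptgs1 between the tissues. Each is the 250 bases before a transcript start of the gene in RefSeq on GRCm38.p6, read 5′ to 3′ along the gene. Capitals mark every match, on either strand, to 6 short motifs searched for: the TATA box TATAAA, the GC box GGGCGG, the E box CACGTG, the cAMP response element TGACGTCA, its shorter form TGACG and the steroid receptor motif AGAACA.
Hpgd (chr8:56294302-56294551, plus strand): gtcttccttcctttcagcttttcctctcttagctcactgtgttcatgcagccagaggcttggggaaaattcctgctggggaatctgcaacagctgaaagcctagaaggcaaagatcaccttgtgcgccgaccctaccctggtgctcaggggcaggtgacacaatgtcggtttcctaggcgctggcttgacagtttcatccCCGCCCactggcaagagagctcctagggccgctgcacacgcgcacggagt
Slco2a1 (chr9:103008237-103008486, plus strand): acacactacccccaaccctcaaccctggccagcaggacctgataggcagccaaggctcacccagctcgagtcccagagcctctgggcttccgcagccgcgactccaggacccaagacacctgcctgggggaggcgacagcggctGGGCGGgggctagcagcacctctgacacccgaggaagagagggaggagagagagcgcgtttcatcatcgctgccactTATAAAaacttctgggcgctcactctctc
Ptges (chr2:30903298-30903547, minus strand): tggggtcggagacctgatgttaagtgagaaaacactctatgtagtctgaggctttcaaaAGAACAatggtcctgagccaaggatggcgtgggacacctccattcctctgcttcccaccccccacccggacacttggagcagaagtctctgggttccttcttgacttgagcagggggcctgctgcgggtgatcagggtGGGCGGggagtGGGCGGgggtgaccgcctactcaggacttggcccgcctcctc
Ptgs1 (chr2:36230176-36230425, plus strand): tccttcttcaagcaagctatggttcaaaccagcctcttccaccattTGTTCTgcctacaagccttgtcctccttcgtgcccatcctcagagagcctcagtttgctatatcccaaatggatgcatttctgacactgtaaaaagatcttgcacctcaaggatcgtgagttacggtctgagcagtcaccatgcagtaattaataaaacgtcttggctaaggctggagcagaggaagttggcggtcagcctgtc
The Slco2a1 promoter had TATAAA at bases -29 to -24 and GGGCGG at -106 to -101, counted back from the start. In the Hpgd promoter the GC box was found on the other strand at bases -50 to -45, with no other match. Ptges had GGGCGG at bases -53 to -48 and -42 to -37 and AGAACA at -191 to -186, and Ptgs1 had AGAACA on the other strand at -204 to -199. Among 27025 promoters of the same length, 33.0% held the GC box, 16.2% AGAACA, 13.0% TATAAA, 17.9% TGACG, 1.62% the full TGACGTCA, of which TGACG is a part, and 6.05% the E box. GC content was 56.8% for Hpgd, 63.2% for Slco2a1, 59.6% for Ptges and 48.0% for Ptgs1, beside a median of 52.0% over all promoters. Promoters were found for 9 members, all but Ptgis.

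Divided by the length of the principal transcript, the highest median levels were those of Ptges3 in cervix (114 CPM per kilobase in hCG mice and 135 in PBS mice) and of Ptgs1 in myometrium (134 in hCG mice and 118 in PBS mice). Ptges3 encodes a small co-chaperone of heat shock protein 90 that also has prostaglandin E synthase activity. In myometrium it was close behind Ptgs1, at 108 CPM per kilobase in hCG mice and 107 in PBS mice, and with all exons of each gene counted as its length the order of the pair turned round in PBS mice. A processed pseudogene of Ptges3 lies on chromosome 6, and reads shared with it make the Ptges3 level uncertain. Pla2g4a held the second rank in cervix by principal transcript (36.5 CPM per kilobase in hCG mice and 49.6 in PBS mice). Ptges2 and Ptgs2 were the lowest of the tested members in both groups of cervix, from 1.06 to 1.87 CPM per kilobase, and the inducible cyclooxygenase was low in myometrium too (2.43 in hCG mice and 1.51 in PBS mice).

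**Figure D1:**
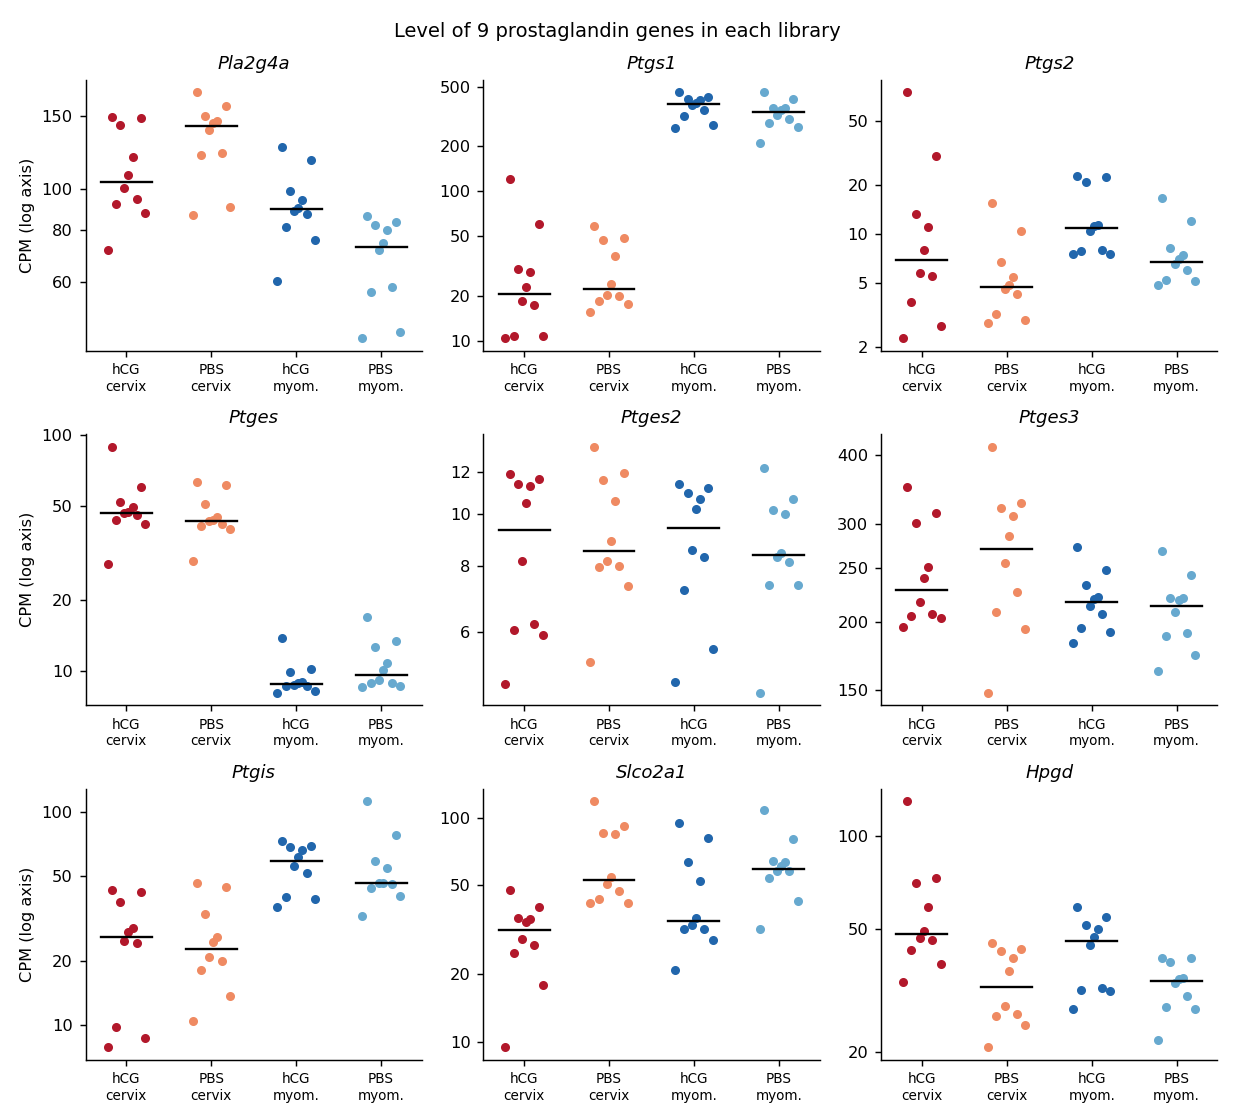
Level of the 9 tested members in each library (CPM, logarithmic axes), with 1 point per library, 10 libraries per group and a bar at the group median; myom. is myometrium. Ptgs1 and Ptges separate the tissues without overlap, while Slco2a1 lies lower and Hpgd higher in hCG cervix than in PBS cervix with overlap at the edges.

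The first comparison asked how hCG changes these genes in cervix. The carrier fell and the dehydrogenase rose, while none of the genes of synthesis passed the test. Slco2a1 fell 2.19-fold and Hpgd rose 1.79-fold, so 2 of the 9 tested members were called (22.2%), where 8.91% of all 14932 tested genes were called by edgeR's quasi-likelihood test at a Benjamini-Hochberg adjusted p under 0.05. By direction, 4.74% of all genes were higher and 4.17% lower (708 and 623 genes, and 972 and 475 with upper-quartile scaling). The distance of the members' share from the background rests on 2 genes. Their log2 CPM had a Pearson's r of -0.72 over the cervix libraries after group means were removed, so the 2 calls are not independent.

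Slco2a1, on chromosome 9 (103007061 to 103096002, plus strand, GRCm38.p6), encodes the prostaglandin transporter, which carries prostaglandins from the outside of the cell to the enzymes that inactivate them. It had 9.44, 31.6 and 47.6 CPM (lowest, median and highest) in hCG cervix, against 41.6, 52.7 and 119 CPM in PBS cervix. Of the 10 hCG libraries, 9 were below the lowest PBS library, and library 9 alone reached into the PBS range. The means were 30.1 ± 11.0 CPM in hCG cervix and 66.1 ± 27.2 CPM in PBS cervix (SD, n = 10 each), a log2 difference of -1.13 (SE 0.253, edgeR adjusted p = 0.0274). Since the tissue was sequenced whole, fewer cells that express a gene and less of its RNA per cell cannot be told apart.

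Hpgd, on chromosome 8 (56294552 to 56321046, plus strand), encodes 15-hydroxyprostaglandin dehydrogenase, the first step of prostaglandin inactivation. Its lowest, median and highest levels were 33.8, 48.2 and 130 CPM in hCG cervix and 20.7, 32.5 and 45.3 CPM in PBS cervix. All 10 hCG libraries lay above the PBS median and 7 above the highest PBS library, with library 5 far above the rest. The means were 59.1 ± 28.1 CPM in hCG cervix and 33.4 ± 9.07 CPM in PBS cervix (SD, n = 10 each), a log2 difference of 0.84 (SE 0.216, edgeR adjusted p = 0.0309). Without library 5 the log2 difference was 0.63 (edgeR adjusted p = 0.0496).

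Both calls rested on a margin that single libraries could remove. Leaving out hCG library 3 gave an edgeR adjusted p of 0.0581 for Slco2a1 and 0.0616 for Hpgd, and leaving out PBS library 4, 7 or 8 gave 0.0523 to 0.0579 for Slco2a1 and 0.0572 to 0.0659 for Hpgd. In these 4 fits only 1 to 8 genes of the whole table were called. Leaving out PBS library 10 gave 0.0531 for Hpgd. The sizes moved less, between log2 -1.21 and -0.99 for Slco2a1 and between 0.63 and 0.91 for Hpgd over the 20 fits without 1 library. Without hCG libraries 1, 3 and 5 the log2 difference was -0.95 for Slco2a1 (edgeR adjusted p = 0.0833) and 0.56 for Hpgd (edgeR adjusted p = 0.114), and edgeR called no gene of the table. PBS libraries 6, 7 and 8, of the 4 with high Lars2, had the highest Slco2a1 of their group (92.4, 119 and 85.4 CPM). Without PBS libraries 5 to 8 the log2 difference was -0.79 for Slco2a1 (edgeR adjusted p = 0.0973) and 0.82 for Hpgd (edgeR adjusted p = 0.0891), and 1 gene of the table was called.

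Markers of several cell types moved with the same groups. The summed level of the 14 squamous markers was 1352, 6782 and 17506 CPM (lowest, median and highest) in hCG cervix and 10845, 23195 and 67303 CPM in PBS cervix, and 4 of the 14 markers were called lower with hCG. Called higher were 5 of 7 tested urothelial, 3 of 5 neutrophil, 4 of 13 macrophage and 2 of 4 mesothelial markers. So were 2 of 8 skeletal muscle, 1 of 8 adipocyte, 1 of 10 endothelial and 1 of 7 yolk sac and fetal liver markers. Of all genes, 4.74% were called higher and 4.17% lower. Upk1b is in both the urothelial and the mesothelial list, so these counts are not separate. The neutrophil markers summed to 5.42, 56.0 and 227 CPM (lowest, median and highest) in hCG cervix and 6.58, 13.6 and 22.8 CPM in PBS cervix, and the macrophage markers to 414, 681 and 1418 CPM in hCG cervix and 196, 505 and 730 CPM in PBS cervix. The parts of these cell types in the Slco2a1, Hpgd and Ptgs2 values were not tested. Libraries 5 and 3, with the lowest squamous sums among the hCG libraries, also had the lowest Slco2a1 (9.44 and 18.0 CPM). PBS library 4 had the highest squamous sum and the lowest Hpgd of its group (20.7 CPM). Other libraries went the other way. The squamous sum of hCG library 7 was also low (2505 CPM), but its Slco2a1 (34.3 CPM) was above the group median and its Hpgd was 38.6 CPM. PBS library 6 had a squamous sum near the lowest of its group (10945 CPM) and a high Slco2a1 (92.4 CPM). The squamous score of a library is the mean log2 CPM of these markers. With this score as a covariate, the log2 difference was -0.53 for Slco2a1 (edgeR adjusted p = 0.83) and 0.27 for Hpgd (edgeR adjusted p = 0.897). In that fit edgeR called no gene of the table. Since the markers were themselves lower with hCG, this fit cannot tell squamous content and hCG apart.

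**Figure D2:**
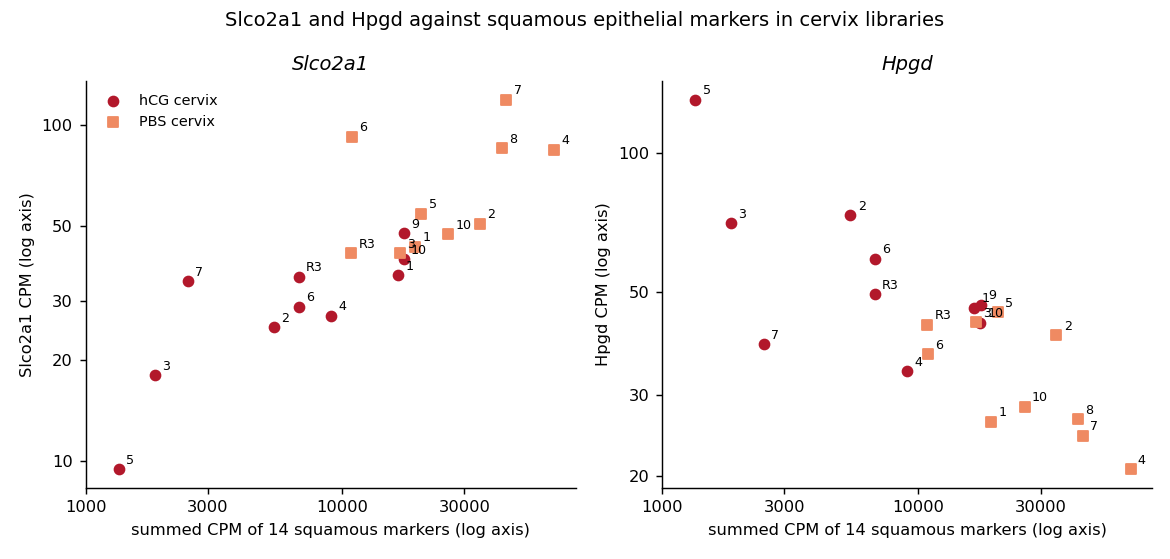
Level of Slco2a1 (left) and Hpgd (right) against the summed level of 14 squamous epithelium markers (CPM, logarithmic axes) in each cervix library; circles are hCG, squares are PBS, and the numbers are the library numbers. Slco2a1 is lowest in hCG libraries 5 and 3, which have the lowest squamous sums, and Hpgd is highest in hCG library 5. In hCG library 7 a low squamous sum goes without low Slco2a1, and PBS library 6 has high Slco2a1 at a low sum for its group.

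**Figure D3:**
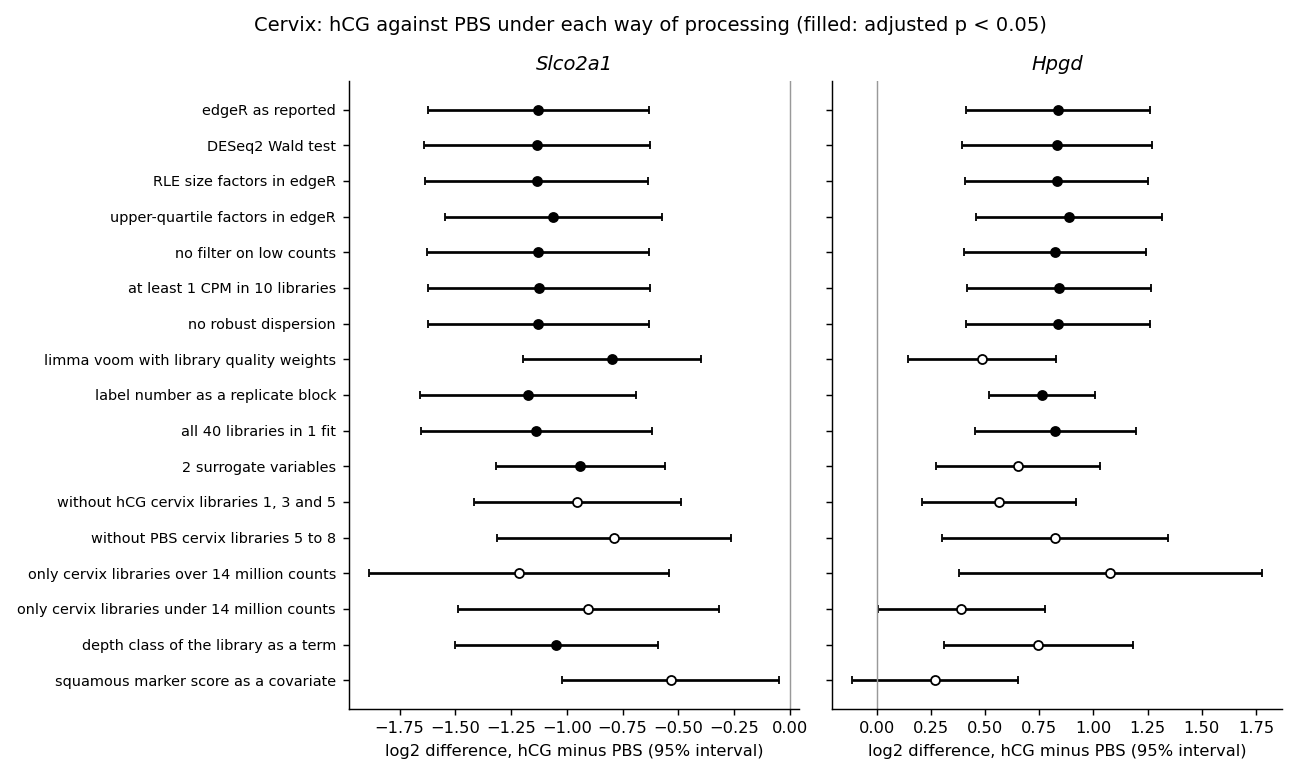
Log2 difference of Slco2a1 and Hpgd between hCG and PBS cervix as reported and under each other way of processing, with 95% intervals from the standard error; filled points have an adjusted p under 0.05. Slco2a1 stays below 0 and Hpgd above 0 in each, and both are closest to 0 with the squamous score as a covariate.

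The genes of synthesis did not pass the test in cervix. Ptgs2, on chromosome 1 (150100031 to 150108234, plus strand), encodes the inducible cyclooxygenase. It had 2.27, 6.86 and 75.0 CPM (lowest, median and highest) in hCG cervix and 2.83, 4.72 and 15.5 CPM in PBS cervix. Libraries 5 (75.0 CPM) and 3 (30.4 CPM) of the hCG group stood above every PBS library, 2 hCG libraries lay below the lowest PBS library, and the other 6 were within the PBS range. The log2 difference was 1.39 (SE 0.559, edgeR adjusted p = 0.104), 0.64 without library 5 and -0.10 without libraries 1, 3 and 5. Libraries 5, 3 and 1 had the highest Ptgs2 of the hCG cervix (13.2 CPM in library 1), so leaving them out lowers the difference by itself. DESeq2 and a fit of all 40 libraries called Ptgs2 higher, for 3 members in all.

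Ptgs1, on chromosome 2 (36216742 to 36258593, plus strand), encodes the constitutive cyclooxygenase. It had 10.3, 20.6 and 121 CPM (lowest, median and highest) in hCG cervix and 15.5, 22.2 and 58.9 CPM in PBS cervix, and library 5 was again the highest. Its log2 difference was 0.12, with a 95% interval of -0.71 to 0.94. Pla2g4a encodes cytosolic phospholipase A2, which releases arachidonic acid; its log2 difference was -0.24 (95% interval -0.54 to 0.05, edgeR adjusted p = 0.286), with 7 of 10 hCG libraries below the PBS median. For Ptges, the inducible microsomal prostaglandin E synthase, it was 0.14 (-0.19 to 0.47). For Ptges2, another membrane-associated prostaglandin E synthase, it was -0.08 (-0.47 to 0.31), and for Ptges3 -0.11 (-0.43 to 0.22). For Ptgis, prostacyclin synthase, it was -0.01 (-0.65 to 0.62).

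Library 5 of the hCG cervix had the highest Hpgd, Ptgs2, Ptgs1 and Ptges and the lowest Slco2a1 of its group. Its smooth muscle markers summed to 26684 CPM, against a median of 7780 CPM for hCG cervix and 6759 CPM for PBS cervix, and its squamous markers to 1352 CPM, the lowest of all cervix libraries. Its urothelial sum of 2486 CPM stood beside medians of 125 CPM in hCG cervix and 81.6 CPM in PBS cervix, and its mesothelial sum of 1538 CPM beside 126 CPM in hCG cervix and 140 CPM in PBS cervix, while its neutrophil sum (5.42 CPM) was the lowest of its group. The part of tissue makeup in its prostaglandin genes was not tested.

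**Figure D4:**
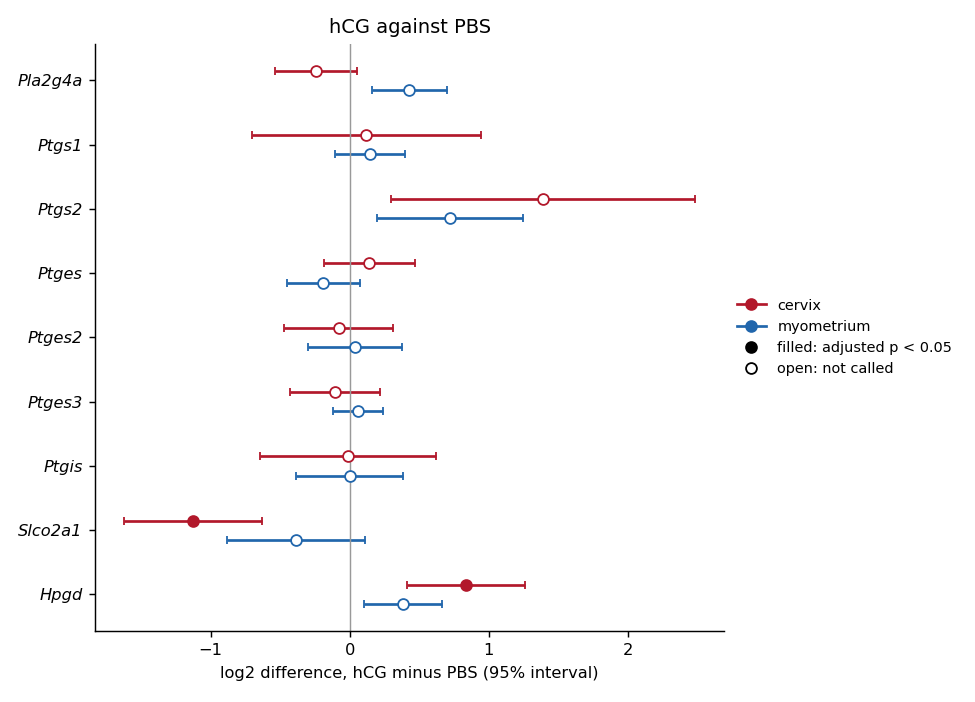
Log2 difference between hCG and PBS of the 9 tested members in cervix and myometrium, with 95% intervals from the standard error; filled points have an adjusted p under 0.05. Slco2a1 and Hpgd in cervix are the filled points, and Pla2g4a lies on opposite sides of 0 in the tissues.

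The second comparison asked the same in myometrium, where no member passed the test. Of all 14517 tested genes, 0.0138% were called by edgeR (0.00689% higher and 0.00689% lower), and none of the 9 tested members was among them, nor were any called by DESeq2 or limma voom. At an unadjusted p under 0.05, 3 of the 9 members were counted, beside 15.5% of all tested genes. These were Pla2g4a, Ptgs2 and Hpgd.

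Pla2g4a, on chromosome 1 (149829618 to 149961290, minus strand), had 60.1, 89.4 and 126 CPM (lowest, median and highest) in hCG myometrium and 43.9, 72.9 and 86.3 CPM in PBS myometrium. In the hCG group, 9 of 10 libraries lay above the PBS median and 7 above the highest PBS library. The means were 91.9 ± 19.2 CPM in hCG myometrium and 68.2 ± 15.9 CPM in PBS myometrium (SD, n = 10 each), a log2 difference of 0.43 (SE 0.138, edgeR adjusted p = 0.136).

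Ptgs2 had 7.47, 10.8 and 22.7 CPM (lowest, median and highest) in hCG myometrium and 4.81, 6.74 and 16.8 CPM in PBS myometrium. All 10 hCG libraries were above the PBS median, and libraries 5, 6 and 8, at 21.0 to 22.7 CPM, were above the highest PBS library. The log2 difference was 0.72 (SE 0.267, edgeR adjusted p = 0.181).

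Hpgd had 27.5, 45.9 and 59.0 CPM in hCG myometrium, against 21.9, 33.9 and 40.5 CPM in PBS myometrium. Of the hCG libraries, 6 were above the highest PBS library and the other 4 were below the PBS median, so the hCG libraries split around the PBS values. Its log2 difference was 0.38 (SE 0.143, edgeR adjusted p = 0.186). Slco2a1 had 21.0, 34.6 and 94.8 CPM in hCG myometrium and 31.8, 59.5 and 109 CPM in PBS myometrium, with 7 hCG libraries below the PBS median and a log2 difference of -0.38 (95% interval -0.88 to 0.11, edgeR adjusted p = 0.496). Its highest levels were in hCG library 5 and PBS library 4, which had the highest sums of luteal cell markers in their groups (3169 and 1637 CPM, 6 genes). These libraries also had the highest adipocyte sums of their groups (173 and 75.0 CPM, 8 genes). PBS library 4 had the highest yolk sac and fetal liver (20249 CPM), neutrophil (141 CPM) and squamous sums (55.6 CPM) of its group as well. The part of any of these tissues in the Slco2a1 values was not tested.

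The other members stayed closer to 0 in myometrium. The log2 difference was 0.14 for Ptgs1 (95% interval -0.11 to 0.39), -0.19 for Ptges (-0.45 to 0.07), 0.04 for Ptges2 (-0.30 to 0.37), 0.06 for Ptges3 (-0.12 to 0.24) and -0.0015 for Ptgis (-0.38 to 0.38). Markers of yolk sac and fetal liver, 10 genes, summed to 215, 3581 and 32382 CPM (lowest, median and highest) in hCG myometrium and to 82.9, 629 and 20249 CPM in PBS myometrium. With that score as a covariate, no member was called either.

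The response to hCG was then compared between the tissues by testing the difference of the cervix and myometrium responses in all 40 libraries. No tested member was called, beside 0.352% of 15624 genes (0.128% higher and 0.224% lower, or 20 and 35 genes by edgeR, and 25 and 15 with upper-quartile scaling). At an unadjusted p under 0.05, 2 of the 9 members were counted, beside 3120 of all 15624 genes. For Pla2g4a the cervix response minus the myometrium response was log2 -0.68 (SE 0.208, edgeR adjusted p = 0.0824). DESeq2 and limma voom called this difference, as did edgeR without PBS cervix library 6 (log2 -0.73, edgeR adjusted p = 0.0373) or the PBS cervix library that the labels call R3, distinct from library 3 (log2 -0.74, edgeR adjusted p = 0.0457). For Slco2a1 it was log2 -0.75 (SE 0.368, edgeR adjusted p = 0.246). The Hpgd responses of the tissues differed by log2 0.44 (95% interval -0.08 to 0.97, edgeR adjusted p = 0.349), so the call in cervix alone does not show that Hpgd responded differently there. For Ptgs2 the interval was -0.59 to 1.91 around 0.66.

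The tissues themselves were compared within each treatment. Ptgs1 and Ptgis were lower and Ptges higher in cervix than in myometrium in both treatments. In hCG mice 3 of the 9 tested members were called (33.3%), 1 higher and 2 lower, where edgeR called 43.7% of all 14974 tested genes (24.3% higher and 19.4% lower). In PBS mice 5 members were called (55.6%), 3 higher and 2 lower, where edgeR called 54.0% of 14545 genes (28.0% higher and 26.1% lower). The members' shares thus lay near or below those of all genes. The 2 comparisons use different libraries.

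Ptgs1 differed most. In hCG mice it had 10.3, 20.6 and 121 CPM (lowest, median and highest) in cervix and 267, 385 and 462 CPM in myometrium, a log2 difference of -3.47 (SE 0.404, edgeR adjusted p = 7.47e-07). In PBS mice it had 15.5, 22.2 and 58.9 CPM in cervix and 212, 338 and 460.0 CPM in myometrium, a log2 difference of -3.43 (SE 0.255, edgeR adjusted p = 2.66e-10). Every cervix library was below every myometrium library of the same treatment, and the difference was 11.0-fold in hCG mice and 10.8-fold in PBS mice. The gene shares 148 exon bases, 3.81% of its exons, with a transcript on the opposite strand, whose reads cannot be told apart here because the counting strand is not given. The same holds for 156 exon bases of Ptgis (6.08%) and 104 exon bases of Slco2a1 (0.77%).

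Ptges, on chromosome 2 (30889471 to 30931020, minus strand), was higher in cervix. In hCG mice it had 28.3, 46.9 and 89.5 CPM in cervix and 8.05, 8.81 and 13.8 CPM in myometrium (lowest, median and highest), a log2 difference of 2.44 (SE 0.159, edgeR adjusted p = 1.91e-10). In PBS mice it had 29.1, 43.3 and 63.5 CPM in cervix and 8.55, 9.61 and 16.8 CPM in myometrium, a log2 difference of 2.11 (SE 0.151, edgeR adjusted p = 1.3e-10). All cervix libraries were above all myometrium libraries, by 5.43-fold in hCG mice and 4.33-fold in PBS mice on the fitted scale. Within hCG myometrium, library 5 (13.8 CPM) stood above the rest.

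Ptgis, on chromosome 2 (167203194 to 167252150, minus strand), makes prostacyclin, which relaxes smooth muscle. It had 7.88, 26.0 and 43.1 CPM (lowest, median and highest) in cervix and 35.7, 58.7 and 73.3 CPM in myometrium of hCG mice, a log2 difference of -1.13 (SE 0.282, edgeR adjusted p = 0.00282). In PBS mice it had 10.5, 22.7 and 46.3 CPM in cervix and 32.4, 46.7 and 113 CPM in myometrium, a log2 difference of -1.11 (SE 0.257, edgeR adjusted p = 8.99e-04). In each treatment 7 of the 10 cervix libraries were below the lowest myometrium library and the groups overlapped. Smooth muscle markers, all 9 detected in both tissues, were also lower in cervix, where their sums were 1135 to 26684 CPM in hCG mice and 2005 to 12548 CPM in PBS mice, against 12396 to 26598 and 13591 to 29335 CPM in myometrium of the same treatments; their part in Ptgis and Ptgs1 was not tested.

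**Figure D5:**
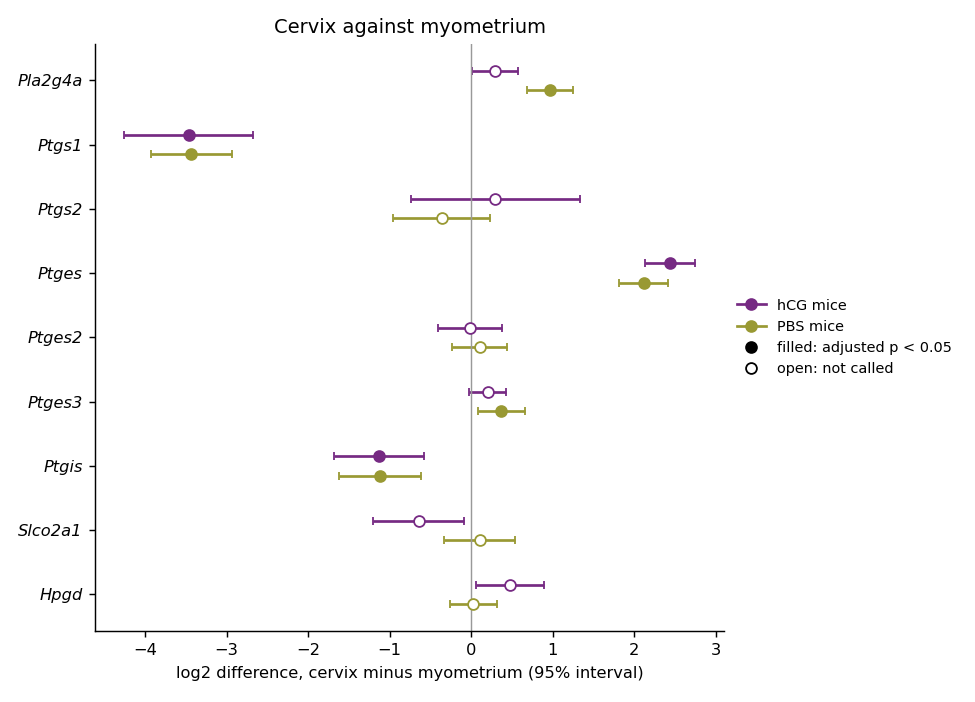
Log2 difference between cervix and myometrium of the 9 tested members in hCG and PBS mice, with 95% intervals from the standard error; filled points have an adjusted p under 0.05. Ptgs1 lies near -3.4 and Ptges above 2 in both treatments, while Pla2g4a is filled in PBS mice and open in hCG mice.

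Pla2g4a and Ptges3 were called between the tissues in PBS mice and not in hCG mice. Pla2g4a had 86.5, 142 and 171 CPM in cervix and 43.9, 72.9 and 86.3 CPM in myometrium of PBS mice (lowest, median and highest), without overlap, a log2 difference of 0.97 (SE 0.144, edgeR adjusted p = 7e-06). In hCG mice it had 71.3, 104 and 149 CPM in cervix and 60.1, 89.4 and 126 CPM in myometrium, the groups overlapped, and the log2 difference was 0.29 (SE 0.144, edgeR adjusted p = 0.105). The test of this gap between treatments is the same as the test of the difference of responses above, whose edgeR adjusted p was 0.0824. Ptges3 had a log2 difference of 0.20 in hCG mice (SE 0.115, edgeR adjusted p = 0.161) and 0.37 in PBS mice (SE 0.147, edgeR adjusted p = 0.0375). Its PBS call was lost with upper-quartile scaling, without the filter on low counts and with the label number as a block, and it was kept in 9 of 20 fits without 1 library (highest edgeR adjusted p 0.0877).

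Slco2a1, Hpgd, Ptgs2 and Ptges2 were not called between tissues in either treatment. In hCG mice the log2 difference between cervix and myometrium was -0.64 for Slco2a1 (SE 0.283, edgeR adjusted p = 0.0706) and 0.47 for Hpgd (SE 0.213, edgeR adjusted p = 0.0775), and a fit of all 40 libraries called both. In PBS mice it was 0.11 for Slco2a1 (95% interval -0.33 to 0.54) and 0.03 for Hpgd (-0.26 to 0.31). Ptgs2 stood at 0.30 in hCG mice (-0.74 to 1.33) and -0.36 in PBS mice (-0.96 to 0.23). Without hCG cervix libraries 1, 3 and 5 it was called lower in cervix of hCG mice (log2 -1.18, edgeR adjusted p = 0.00761). These are the hCG cervix libraries with the highest Ptgs2 (13.2, 30.4 and 75.0 CPM), so that call cannot show a tissue difference. Ptges2 stood at -0.01 in hCG mice (-0.40 to 0.38) and 0.11 in PBS mice (-0.23 to 0.44), and its level was the most even of the members over the 4 groups, with medians of 8.37 to 9.41 CPM.

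Around these members, 54 other genes of arachidonic acid release and return, prostanoid synthesis, prostanoid breakdown and the lipoxygenase branch were counted, of which 53 had a row. In hCG cervix against PBS cervix, 2 of 44 tested genes rose and 1 fell (6.82%, against 8.91% of all genes). Pla2g7, which encodes platelet-activating factor acetylhydrolase, stood at 26.7 ± 24.7 CPM in hCG cervix and 10.7 ± 2.99 CPM in PBS cervix (SD, n = 10 each), a log2 difference of 1.34 (SE 0.352, edgeR adjusted p = 0.0321). Ephx2, encoding soluble epoxide hydrolase, had a log2 difference of 1.35 (SE 0.402, edgeR adjusted p = 0.0416) and Alox8, a lipoxygenase, of -1.0 (SE 0.308, edgeR adjusted p = 0.0464). Without hCG libraries 1, 3 and 5 these values were 0.58 for Pla2g7, 0.30 for Ephx2 and -1.04 for Alox8, and none was called. The median over the 44 genes was log2 0.01, as over all genes tested (0.01). DESeq2 called 11 of the 44, and 15.3% of all genes.

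None of the 40 tested genes of this list was called in hCG myometrium against PBS myometrium by edgeR, DESeq2 or limma voom, and 8 had an unadjusted p under 0.05, beside 15.5% of all genes. Their median was log2 0.12, against 0.01 over all genes tested. For the difference of responses, none of 48 was called by any of the 3 tools and 12 had an unadjusted p under 0.05, beside 3120 of all 15624 genes, with a median of log2 -0.01, against 0.03 over all genes.

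Between tissues most of the list was called. In hCG mice 9 of 42 tested genes were higher and 17 lower in cervix (61.9%, against 43.7% of all genes), and in PBS mice 15 of 43 were higher and 21 lower (83.7%, against 54.0%). The median was log2 -0.15 in hCG mice (0.07 over all genes) and -0.26 in PBS mice (0.04 over all genes). Genes listed as other terminal synthases were lower in cervix as a group: 6 of 9 fell and none rose in hCG mice, and 8 of 9 fell and 1 rose in PBS mice. Their medians were log2 -1.05 in hCG mice and -1.62 in PBS mice. The list includes the aldo-keto reductases Akr1b3, Akr1b7, Akr1b8, Akr1c14, Akr1c18 and Akr1c19, a family that also acts on steroids. The count is therefore not one of prostanoid synthesis alone. Of all genes, 19.4% were lower in hCG mice and 26.1% in PBS mice. Markers of other tissues were lower in cervix too: 4 of 5 tested luteal (median log2 -4.14), 9 of 9 yolk sac and fetal liver (-5.72) and 3 of 4 decidua and trophoblast markers (-3.46) in hCG mice, and 3 of 4 (the other was higher), 8 of 9 and 1 of 1 in PBS mice. Their part in the synthase values was not tested. The 1 listed synthase that rose in PBS mice was Prxl2b, a prostamide and prostaglandin F synthase (log2 1.38, edgeR adjusted p = 4e-04), named after its value was seen. Akr1c18, encoding an aldo-keto reductase that reduces prostaglandin substrates and inactivates progesterone, averaged 24.3 ± 19.0 CPM in cervix and 1622 ± 585 CPM in myometrium of hCG mice (SD, n = 10 each), a log2 difference of -6.04 (edgeR adjusted p = 8.16e-09). In PBS mice it averaged 34.5 ± 39.6 CPM in cervix and 1464 ± 654 CPM in myometrium, a log2 difference of -5.40 (edgeR adjusted p = 4.56e-09). Akr1b7, an aldo-keto reductase with prostaglandin F synthase activity, stood at log2 -5.37 and Akr1c14 at -2.79 in hCG mice. Tbxas1, thromboxane synthase, stood at -1.62 in PBS mice. Every cervix library was below every myometrium library for these 4 genes in the treatment named. They were named for having the smallest p of the list, so this separation adds nothing to their tests. The share of all genes without overlap was not counted.

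Genes that return arachidonic acid to lipids were lower in cervix, 3 of 3 in each treatment, with Acsl4, an arachidonate-preferring acyl-CoA ligase, at log2 -1.84 in hCG mice and -1.51 in PBS mice. Among genes of release, 4 of 13 were higher and 4 lower in hCG mice, and 6 of 14 were higher and 4 lower in PBS mice. Of all genes, 24.3% were higher and 19.4% lower in hCG mice, and 28.0% were higher and 26.1% lower in PBS mice. The phospholipases Pla2g10 and Pla2g4f averaged 12.9 ± 5.49 and 12.3 ± 11.3 CPM in cervix of PBS mice, against 0.211 ± 0.310 and 0.265 ± 0.283 CPM in myometrium (SD, n = 10 each). The carbonyl reductases Cbr2 and Cbr3 were higher in cervix, Cbr2 at log2 4.09 in hCG mice and 4.29 in PBS mice and Cbr3 at 3.21 in hCG mice and 3.94 in PBS mice. Mgll, monoacylglycerol lipase, was lower (log2 -2.52 in PBS mice). In hCG mice the phospholipase Pla2g16 stood at log2 1.34 and the lipoxygenase Alox12 at 1.16.

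Of the 9 prostanoid receptors, 2 of 7 tested rose in hCG cervix against PBS cervix and none fell, beside 4.74% of all genes higher, with a median of log2 0.77 (0.01 over all genes tested). Ptger2, a receptor for prostaglandin E2, stood at 2.77 ± 2.21 CPM in hCG cervix and 0.720 ± 0.393 CPM in PBS cervix (SD, n = 10 each), a log2 difference of 1.95 (SE 0.49, edgeR adjusted p = 0.0298). Ptgfr, the receptor for prostaglandin F2 alpha, stood at 5.83 ± 4.02 CPM in hCG cervix and 2.25 ± 1.10 CPM in PBS cervix, a log2 difference of 1.38 (SE 0.361, edgeR adjusted p = 0.0316). Neither was called without hCG libraries 1, 3 and 5 (log2 1.32 and 0.71) or by limma voom. In myometrium none of 9 receptors was called by edgeR, DESeq2 or limma voom, and 4 had an unadjusted p under 0.05, beside 15.5% of all genes. For the difference of responses none of 9 was called by these tools, and 1 had an unadjusted p under 0.05, beside 3120 of all 15624 genes. Between tissues, 6 of 9 tested receptors were lower in cervix of hCG mice and 7 of 8 in cervix of PBS mice (19.4% and 26.1% of all genes were lower in these comparisons), and none was higher, with medians of log2 -1.12 in hCG mice and -1.19 in PBS mice. Ptgdr, a receptor for prostaglandin D2, stood at log2 -3.58 in hCG mice and -4.40 in PBS mice, Ptger4 at -1.12 in hCG mice and Ptger2 at -2.75 in PBS mice.

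For each member, the genes whose log2 CPM moved most like it over the 40 libraries, after the mean of each group was removed, were taken from 14737 genes. The coefficients are Pearson's r over libraries that share depth and tissue makeup, and they are descriptions. The closest genes were Tead4 (0.80), Scnn1a (0.80) and Tns4 (0.78) for Slco2a1 and Nadk2 (0.78), Ugt1a7c (0.77) and Tpbg (0.75) for Hpgd. They were Paqr5 (0.87), Mtcl1 (0.82) and Bmp3 (0.78) for Ptgs1, Nabp1 (0.82), Stard5 (0.79) and Ermp1 (0.78) for Ptgs2, and Canx (0.84), Nup88 (0.83) and Sacm1l (0.82) for Pla2g4a. Ptges had the weakest neighbours, Stx6 (0.69), Htatip2 (0.69) and Ifitm10 (0.68). Ptgis was closest to Emp3 (0.91), Loxl1 (0.90) and Tubb6 (0.90), Ptges2 to Get3 (0.93), Rpl18 (0.91) and Rpl8 (0.90), and Ptges3 to Ube2v2 (0.94), Srsf3 (0.94) and Eif4e (0.93).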

How the data were processed

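Total RNA was sequenced from cervix and myometrium in 40 libraries, made with a strand-specific kit per the labels' protocols. The deposited file is a matrix of raw counts for 23079 numeric gene identifiers. Per the submitters' processing notes TopHat2 and build GRCm38 (mm10) were used. The sources used here do not give the counter, annotation or strand setting, so reads of overlapping antisense transcripts cannot be separated. Symbols and coordinates came from RefSeq GRCm38.p6 (23008 identifiers matched), and transcript lengths from the principal transcripts of GENCODE M21.

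The members and the lists of pathway and marker genes were chosen with earlier results of these data known. CPM levels use TMM factors from all 40 libraries together. Differences were tested on the counts of all genes that passed filterByExpr, with edgeR 4.0.16 (quasi-likelihood F-test, robust dispersion, TMM, R 4.3.3) on the groups compared, with Benjamini-Hochberg adjustment over all genes tested and a threshold of 0.05. Standard errors (SE) are the log2 difference divided by the square root of F, and 95% intervals are 1.96 SE to each side. These intervals are approximate and narrower than the F-test implies. For Pla2g4a between tissues in hCG mice the interval was 0.01 to 0.58, while the unadjusted edgeR p was 0.0545. The scripts were tested on simulated data. Members are named in every comparison; of the pathway list up to 4 called genes per direction with the smallest p, and up to 2 receptors. Alternatives used DESeq2 1.42.0, limma 3.58.1, sva 3.50.0, other scalings, filters and covariates, and fits without single libraries. No 2 libraries of a group agreed within sampling noise (smallest chi-square per gene 10.5). The deviations of same-numbered libraries from their group means had a median correlation of 0.14 between tissues in PBS mice and 0.0593 in hCG mice. Differently numbered libraries were not compared in this way, so pairing by number was neither shown nor excluded. The main tests treated libraries as independent.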

Additional observations from a re-analysis of the deposited data

Results flagged for a closer look

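Among 36 combinations of a tested member and a group, 5 had 1 library far from the others, by its gap to the next library relative to the range of the group. For independent, normally distributed values chance would give about 1 in 20 such cases. The CPM values were not transformed and members of 1 library are not independent, so that rate is only a rough guide. Of the 5, 4 were library 5 of the hCG cervix, where Hpgd stood at 130 CPM, Ptgs1 at 121 CPM, Ptgs2 at 75.0 CPM and Ptges at 89.5 CPM, each the highest of its group. The other was Ptges in library 5 of the hCG myometrium, at 13.8 CPM. The labels do not say whether these 2 libraries came from 1 mouse.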

How the results depend on the processing

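Calls in cervix and the difference of responses depended on the processing, while the tissue calls of Ptgs1, Ptges and Ptgis held in every fit run. Of 2 members called between hCG and PBS cervix, 1 (Slco2a1) was left with voom, with 2 surrogate variables and with the depth class as a term. There were 0 without hCG libraries 1, 3 and 5, without PBS libraries 5 to 8 (high Lars2), in libraries over or under 14000000 counts alone and with the squamous score as a covariate, and 0 to 2 without single libraries. Direction held for Slco2a1 and Hpgd in all of these. The libraries over 14000000 counts were 6 hCG and 4 PBS cervix libraries, and those under it were 4 and 6. Each depth fit thus compared fewer libraries than the main fit. Against 3 members called between tissues in hCG mice, 5 were called at an adjusted p under 0.1 or with all 40 libraries in 1 fit. For the difference of responses 1 (Pla2g4a) was called, against 0, at an adjusted p under 0.1, with DESeq2, with voom and without PBS cervix libraries 5 to 8, and 0 to 1 without single libraries.

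With the label number as a replicate block, members called were 2 in cervix, 0 in myometrium, 4 between tissues in PBS mice (Ptges3 lost, edgeR adjusted p = 0.0564), 3 in hCG mice and 0 for the difference of responses. Correlations between same-numbered libraries ran from -0.254 to 0.572. Without a comparison to differently numbered libraries they neither show nor exclude pairing by number. Over all genes the block left 0 of the 55 calls for the difference of responses.

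Over all genes, 1331 were called in cervix, but 2891 at an adjusted p under 0.1, 2283 with DESeq2, 3424 with all 40 libraries, 508 with the depth term, 242 in the deeper libraries, 136 with 2 surrogate variables, 1 without PBS libraries 5 to 8, 0 without hCG libraries 1, 3 and 5, in the shallower libraries or with the squamous score, and 1 to 2065 without single libraries (8 without hCG library 3, 2 without PBS library 8 and 1 without PBS library 4 or 7). In myometrium 2 were called, but 161 at an adjusted p under 0.1, 384 with DESeq2, 0 with voom, 5 with surrogate variables, 4 with all 40 libraries or the yolk sac score and 1 to 137 without single libraries. For the difference of responses 55 were called, but 741 at an adjusted p under 0.1, 566 with DESeq2, 576 with voom, 24 without a filter, 2 without hCG cervix libraries 1, 3 and 5, 1138 without PBS cervix libraries 5 to 8 and 0 to 678 without single libraries.

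Signs changed for members near 0 or led by few libraries; the cause was not tested. All values that follow are log2 differences. Cervix, hCG against PBS: Ptgs1 (0.12) was -0.14 with voom, -0.16 with the block, -0.66 with surrogate variables, -0.75 without libraries 1, 3 and 5, -0.56 in shallower libraries, -0.00939 with the depth term, -1.09 with the squamous score and -0.37 to 0.27 without single libraries. Ptgs2 (1.39) was -0.10 without libraries 1, 3 and 5, -0.37 in shallower libraries and -0.25 with the squamous score. Ptgis (-0.01) was 0.066 with upper-quartile factors, 0.18 in deeper libraries, 0.083 with the depth term and -0.12 to 0.12 without single libraries. Ptges2 was 0.054 with voom, 0.087 in shallower libraries and 0.023 with the squamous score, Ptges -0.010 without PBS libraries 5 to 8 and -0.00375 with the squamous score, and Ptges3 0.00445 in shallower libraries. Myometrium: Ptgis was 0.00092 without a filter, 0.13 with voom, 0.15 with the block, 0.00189 with all 40 libraries, 0.026 with surrogate variables, 0.12 with the yolk sac score and -0.067 to 0.17 without single libraries, and Ptges2 -0.028 with surrogate variables and -0.039 to 0.098 without single libraries.

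Cervix against myometrium: in hCG mice Ptgs2 (0.30) was -0.56 with voom, -0.19 with the block, -1.18 without cervix libraries 1, 3 and 5 and -0.46 to 0.42 without single libraries, and Ptges2 0.028 with upper-quartile factors, 0.00839 without those 3 libraries and -0.083 to 0.062 without single libraries. In PBS mice Slco2a1 (0.11) was -0.032 with voom, -0.042 with the block, -0.25 without cervix libraries 5 to 8 and -0.031 to 0.22 without single libraries, and Hpgd -0.00471 with upper-quartile factors and -0.049 to 0.090 without single libraries. Difference of responses: Ptgs2 (0.66) was -0.27 with voom, -0.81 without hCG cervix libraries 1, 3 and 5 and -0.11 to 0.94 without single libraries, Ptgs1 0.063 with upper-quartile factors, 0.12 without PBS cervix libraries 5 to 8 and -0.53 to 0.12 without single libraries, and Ptgis 0.067 with upper-quartile factors and -0.19 to 0.11 without single libraries. With upper-quartile factors the median of all genes was 0.105 between tissues in hCG mice, against 0.066, and 0.105 in the difference of responses, against 0.028.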
